A study of Mus musculus with 4 samples.

Results

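Integrins and the core of the focal adhesion were followed as 34 genes through the cell classes of the mouse digit before and after an amputation that heals with fibrosis. The genes were taken by symbol from a list of 17 integrin alpha chains, 8 beta chains and 9 cytoplasmic adhesion genes (2 talins, vinculin, paxillin, integrin-linked kinase, 3 kindlins and focal adhesion kinase), and all 34 were found among the 32285 genes counted. The animals were wild-type FVB/NJ mice, labelled 8 weeks old and of both sexes pooled, and the labels separate the groups by amputation and time. One group was unamputated homeostatic tissue of the middle of the digit at P2, the second phalanx, and the other 3 groups were the fibrosing tissue collected 12, 17 and 28 days post-amputation (dpa) at that level, where the digit does not regenerate. Each group was 1 library of live sorted cells (10x Chromium 3' v3), so there was no replicate and no test was made. Intervals are exact and cover counting error only.

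Integrins are heterodimers of an alpha and a beta chain that span the plasma membrane. They bind laminins, collagens, fibronectin, latent TGF-beta or cell-surface counter-receptors outside the cell. Inside, talins and kindlins bind the beta tail and switch the receptor on, vinculin and paxillin join the cluster, and integrin-linked kinase and focal adhesion kinase (Ptk2) carry signals and link to actin. Beta 1 pairs with most alpha chains. Beta 2 is the leukocyte chain, alpha 6 beta 4 is the receptor of hemidesmosomes in epithelium, and alpha v chains bind RGD sites and can activate latent TGF-beta.

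The 4 libraries held 92313847 to 197140774 unique transcript counts (UMIs), and 35040 cells were kept. Median UMIs per cell were 11638, 9527, 8507 and 6651 in the order unamputated, 12, 17 and 28 dpa, an order used for every run of 4 values here. The libraries did not match their label of pooled sexes. By Xist and 4 Y-linked genes, 54.2% of 12 dpa cells were called female and 0 male, whereas 77.9%, 58.4% and 47.03% of the unamputated, 17 and 28 dpa cells were called male and at most 1 cell per library female. Sex and time can therefore not be told apart at 12 dpa. Libraries shared 19 to 87 cell barcodes pairwise, at most 0.570% of the smaller library. Cells formed 31 clusters. Of these, 29 were named from marker genes into 16 classes, and 14 classes held at least 50 cells in every library. A level is given as CPM, the UMIs of a gene per 1000000 UMIs of that class in that library.

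Among the 14 classes compared, which leave out the lymphatic endothelial-like and B lineage-like cells, all 34 members reached 5 CPM in their class of highest level in every library. For 15 of the 34 that class was the same in all 4 libraries, a share near the 40.0% found over all genes at the same minimum. Over the settings run the count went from 13, with each cell named alone or thinned, to 21, without the 12 dpa library. The 15 were Itga5 (vascular endothelial-like), Itga7, Itga8, Ilk and Fermt2 (smooth muscle-like), Vcl (pericyte-like), Itga10 (osteoblast-like), Itgb4 (basal keratinocyte-like), Itgb6 (follicle keratinocyte-like), Itgb8 (Schwann-like), Itga9 (macrophage-like), Itgam and Itgb2 (neutrophil-like), and Itgae and Itgb7 (T or NK-like). For the other 19 the leading class changed between libraries, as with Itgb1 between pericyte-like and smooth muscle-like cells, Fermt1 between follicle and basal keratinocyte-like cells and Itga6 between vascular endothelial-like and basal keratinocyte-like cells.

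**Figure D1:**
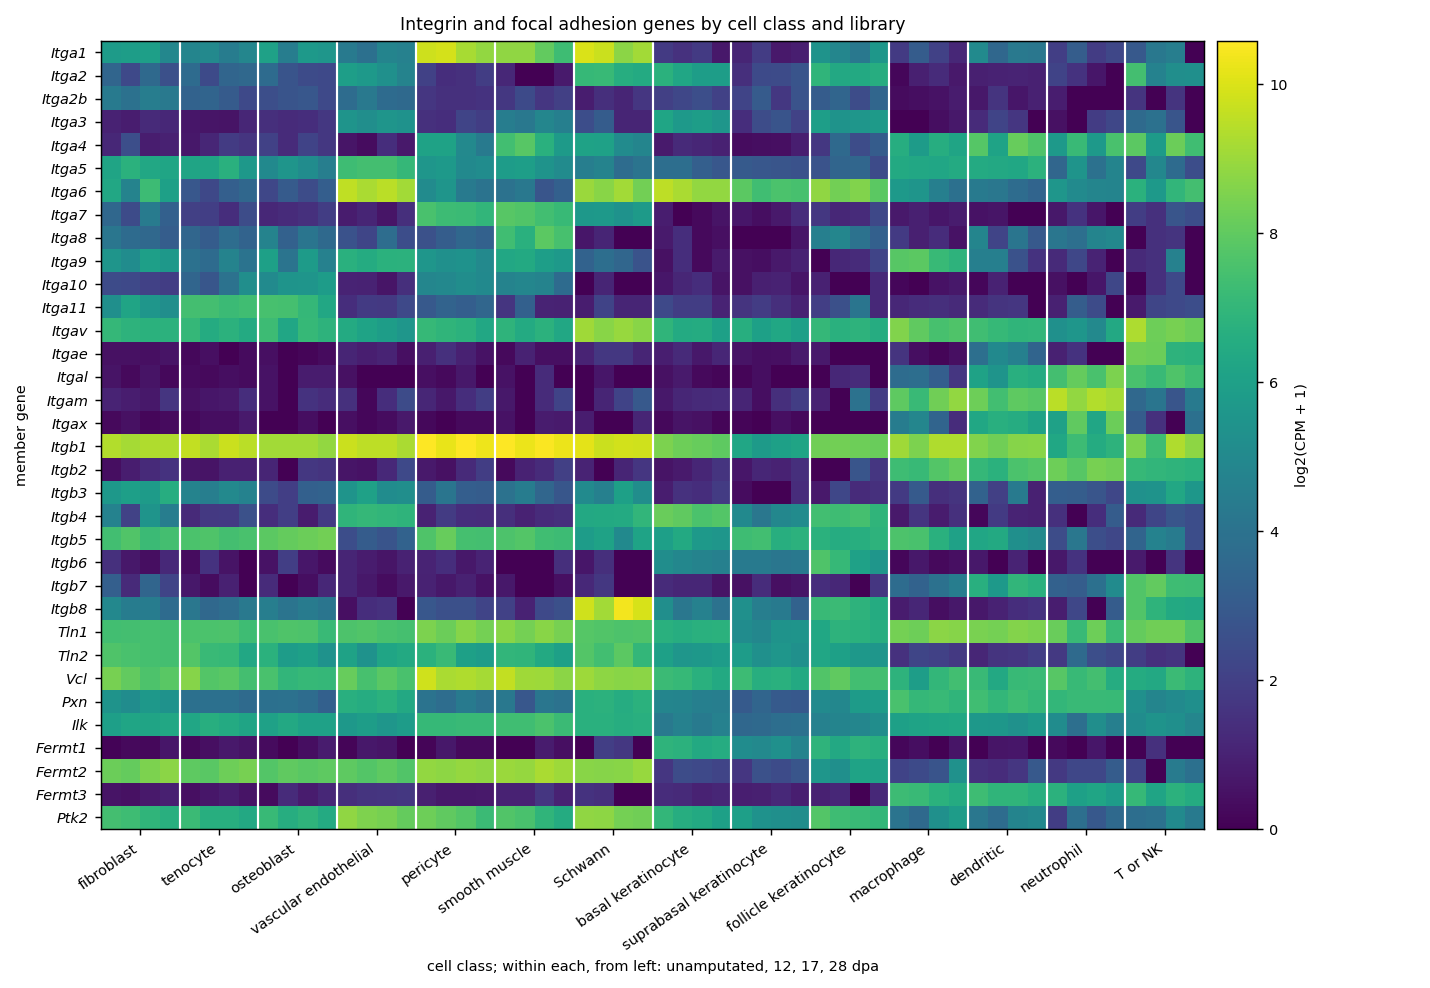
Each row is 1 of the 34 genes and each column a cell class in 1 library (unamputated, 12, 17 and 28 dpa from left within a class), coloured by log2(CPM + 1). Itgb1 is bright in pericyte-like and smooth muscle-like cells, Itga6 and Itgb4 in basal keratinocyte-like and vascular endothelial-like cells, and Itgam and Itgb2 in the leukocyte classes.

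Among the classes compared, a mural class of vessels, pericyte-like or smooth muscle-like, carried the highest level of Itgb1, Vcl, Ilk and Fermt2 in every library. At 28 dpa Schwann-like cells came second for Vcl (430 CPM) and Fermt2 (496 CPM), above the other mural class. Itgb1, the shared beta chain (ENSMUSG00000025809, chr8:128685654-128733200, plus strand), stood at 1533, 1190, 1500 and 1276 CPM in pericyte-like cells and at 1518, 1225, 1466 and 1250 CPM in smooth muscle-like cells. The 2 classes did not separate beyond counting error in the unamputated library (1510 to 1556 and 1484 to 1553). Vcl, which couples talin to actin (ENSMUSG00000021823, chr14:20929398-21033676, plus strand), stood at 900, 600, 631 and 568 CPM in pericyte-like cells and 787, 532, 529 and 423 CPM in smooth muscle-like cells. The unamputated library was the highest of the 4 in both. Fermt2, the kindlin of non-blood cells (ENSMUSG00000037712, chr14:45458795-45530118, minus strand), stood at 514, 473, 604 and 521 CPM in smooth muscle-like and 470, 436, 473 and 448 CPM in pericyte-like cells. Ilk, the scaffold of the ILK, PINCH and parvin complex, stood at 162, 159, 189 and 149 CPM in smooth muscle-like cells. Its reads lie in a short gene that overlaps Rrp8 and Taf10 on the other strand.

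The alpha chains split the mural classes. Itga1, the collagen-binding partner of beta 1, stood at 872, 943, 592 and 468 CPM in pericyte-like cells and at 458, 455, 260 and 158 CPM in smooth muscle-like cells. Its levels at 17 and 28 dpa lay below both earlier libraries in each class. Itga7, a laminin receptor chain known from muscle, stood at 224, 210, 165 and 140 CPM in smooth muscle-like cells and 184, 151, 146 and 122 CPM in pericyte-like cells. Itga8, which binds nephronectin, separated these classes, with 161, 105, 242 and 183 CPM in smooth muscle-like cells against 5.14, 7.61, 10.6 and 8.85 CPM in pericyte-like cells. Itga4, the VCAM-1 and fibronectin receptor chain better known from leukocytes, stood at 166, 228.1, 104 and 53.4 CPM in smooth muscle-like cells.

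RefSeq promoter windows (GRCm38.p6, 250 bases before to 50 bases after the start) were matched for 24 of the 34 members, 27 windows in all. The CArG box, the site bound by serum response factor at smooth muscle and cytoskeletal genes, was searched on both strands. It occurs in 1.63% of the 32851 windows and in those of 3 members, Vcl, Fermt2 and Itgb6. They are shown because Vcl and Fermt2 are cytoplasmic members that led in mural cells in every library, while Itgb6 led in follicle keratinocyte-like cells. Ilk, Itga7 and Itga8 also led in smooth muscle-like cells in every library and are not among these 3. A second motif, GAGGAA, was searched as well and occurs in 28.3% of the windows and in those of 10 members. Capitals mark the box, which starts 227 bases before the start in Vcl, 204 in Fermt2 and 50 in Itgb6. For Itgb6 the start is an internal RefSeq start, inside the annotated gene (chr2:60598292-60722643), and the window at its outer start holds no box.
Vcl, chr14:20929148-20929447, plus strand: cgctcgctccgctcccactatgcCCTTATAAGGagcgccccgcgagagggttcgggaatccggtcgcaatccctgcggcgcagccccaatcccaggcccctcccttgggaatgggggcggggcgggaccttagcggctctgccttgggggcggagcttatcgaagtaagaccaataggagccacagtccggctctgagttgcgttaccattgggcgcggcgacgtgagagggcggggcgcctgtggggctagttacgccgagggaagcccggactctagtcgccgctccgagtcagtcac
Fermt2, chr14:45530016-45530315, minus strand: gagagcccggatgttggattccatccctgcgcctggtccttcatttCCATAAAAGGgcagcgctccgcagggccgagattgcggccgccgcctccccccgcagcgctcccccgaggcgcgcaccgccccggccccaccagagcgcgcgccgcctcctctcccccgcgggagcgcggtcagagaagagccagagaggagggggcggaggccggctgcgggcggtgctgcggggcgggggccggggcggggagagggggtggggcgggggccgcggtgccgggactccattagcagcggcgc
Itgb6, chr2:60673644-60673943, minus strand: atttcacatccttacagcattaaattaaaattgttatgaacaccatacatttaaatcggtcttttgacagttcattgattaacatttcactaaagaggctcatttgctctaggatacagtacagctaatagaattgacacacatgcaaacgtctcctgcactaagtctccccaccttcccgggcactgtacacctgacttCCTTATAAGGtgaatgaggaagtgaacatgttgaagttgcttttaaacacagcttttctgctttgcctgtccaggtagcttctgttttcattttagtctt
The Vcl and Itgb6 boxes have the same 10 letters, although the 2 genes led in different classes. A match describes the letters only.

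Fibroblast-like, tenocyte-like and osteoblast-like cells shared Itgb1 and Itgb5 and differed in their collagen-binding alpha chains. Itga11, the receptor chain for fibrillar collagen, stood at 170, 170, 147 and 160 CPM in tenocyte-like cells and 182, 174, 133 and 81.4 CPM in osteoblast-like cells, against 38.04, 72.3, 45.8 and 36.2 CPM in fibroblast-like cells. Itga10, a collagen-binding integrin chain known from cartilage, stood at 32.2, 43.3, 45.4 and 57.1 CPM in osteoblast-like cells, where the 50 cells at 12 dpa give a wide interval (29.2 to 61.8). Itgb5, which pairs with alpha v and binds vitronectin, stood at 241, 267, 295 and 317 CPM in osteoblast-like and 164, 206, 146 and 171 CPM in fibroblast-like cells. Itgb3, the other RGD-binding partner of alpha v, stood at 49.2, 61.3, 54.9 and 95.3 CPM in fibroblast-like cells, and the 28 dpa interval (91.4 to 99.3) lay above those of the other 3 libraries. Itga2b, the platelet chain, stayed at 18.9, 14.5, 21.3 and 18.3 CPM in the same cells, from a gene with no overlap in the annotation.

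The fibroblast-like class was not uniform. Of its 5 clusters, cluster 24, led by Hcn4, Cpxm2 and Cilp, held both chains of the laminin receptor of epithelium: Itga6 at 1056, 1159 and 844 CPM and Itgb4 at 364, 344 and 300 CPM in the unamputated, 17 and 28 dpa libraries, from 60, 184 and 94 cells. No cell of this cluster was found at 12 dpa. It also held Itga7 at 161, 197 and 139 CPM. Itgb7, highest in T or NK-like and next in dendritic-like cells among the classes compared, stood in cluster 24 at 134, 94.6 and 81.2 CPM. Summed basal keratinocyte markers there were 34.7, 45.4 and 432 CPM, against 19574, 19932, 20094 and 20708 CPM in basal keratinocyte-like cells themselves, and summed vascular endothelial markers were 129, 174 and 170 CPM. Both chains thus stood above their basal keratinocyte-like levels in these 3 libraries. The same keratinocyte markers summed to 35.4, 45.2, 61.2 and 103 CPM in cluster 1, so that in the unamputated and 17 dpa libraries they were no higher in cluster 24. Fibroblast markers were also lower in cluster 24 (9709, 13352 and 10343 CPM) than in cluster 1 (69702, 55049, 58053 and 40514 CPM).

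Cluster 19, led by Apod, Abca8a and Lvrn and with Cldn1 and Krt19 among its leading genes, held a lower level of the same pair. Its Itga6 stood at 203, 199, 433 and 498 CPM and its Itgb4 at 39.7, 21.2, 119 and 174 CPM, with the 17 and 28 dpa libraries above the other 2 in both. Itga1 stood at 202, 156, 248 and 210 CPM in cluster 19 but at 9.21, 18.9, 6.94 and 8.23 CPM in cluster 1, the cluster with most fibroblast-like cells at 28 dpa. Cluster 9, with 19 cells at 12 dpa that are not shown, held Itga6 at 7.49, 7.28 and 8.47 CPM. Itgb3 went the other way, with 74.4, 79.2, 79.8 and 118 CPM in cluster 1 and 6.20, 9.62 and 6.13 CPM in cluster 24. Cluster 26, led by Cadps, Tmem132c and Prss35, had the highest Itga8 at 93.2 and 36.3 CPM in the unamputated and 12 dpa libraries. These clusters were built from the same cells, although the 34 genes were kept out of the clustering, so the differences are descriptions.

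**Figure D2:**
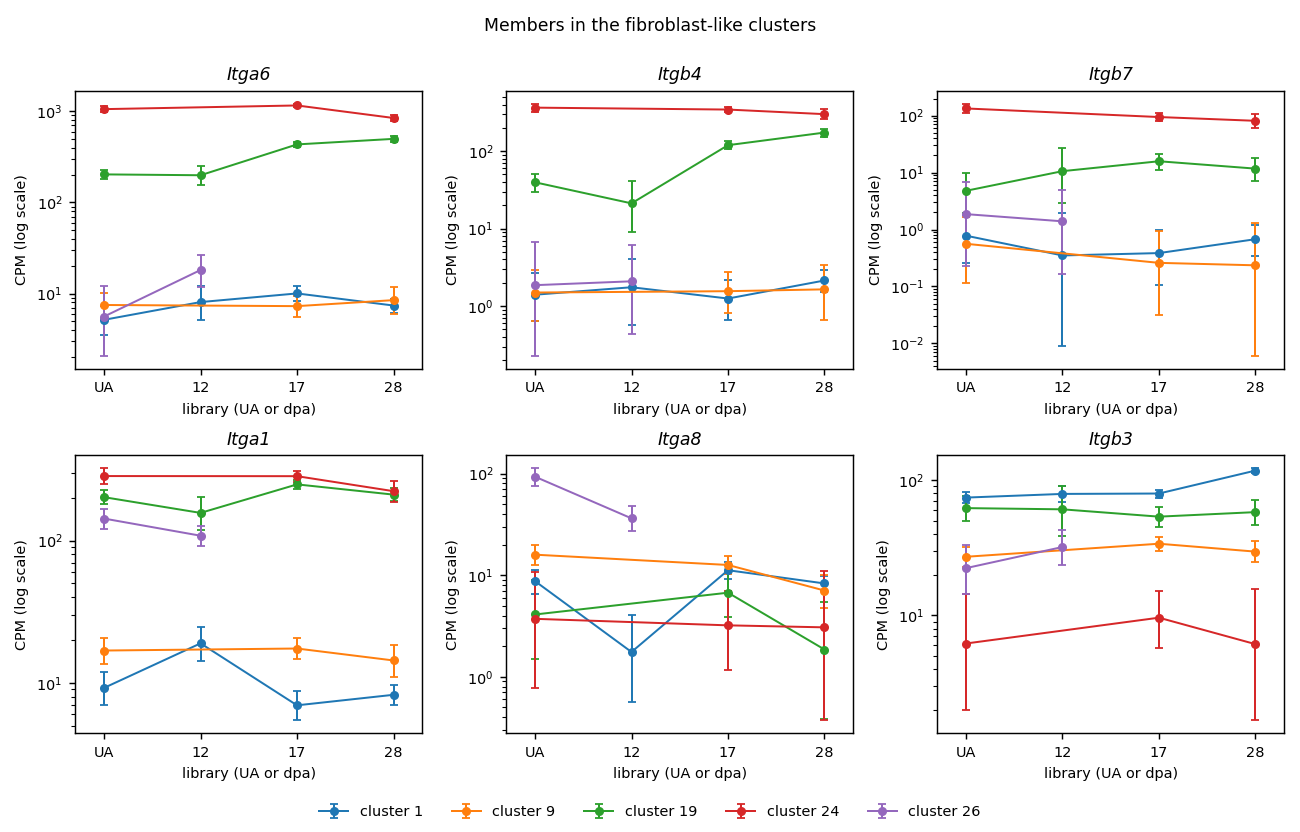
CPM (log scale) of 6 members in each fibroblast-like cluster of at least 30 cells, by library, with 95% Poisson bars; zero levels are not drawn. Itga6, Itgb4 and Itgb7 are highest in cluster 24 and next in cluster 19, Itgb3 in cluster 1 and Itga8 in cluster 26.

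Vascular endothelial-like cells held Itga5, the fibronectin receptor chain, at 154, 169, 170 and 131 CPM. They also held the laminin receptor pair, with Itga6 at 762, 597, 725 and 555 CPM and Itgb4 at 119, 132, 123 and 118 CPM. Itgb4 differed little between libraries there, and all 4 intervals overlapped (114 to 124 in the unamputated library, 106 to 131 at 28 dpa). Itga2, a collagen-binding integrin chain, stood at 60.8, 51.3, 38.3 and 25.3 CPM, each library below the one before. Itga9, the receptor chain for tenascin-C and for lymphatic valve matrix, stood at 770, 663, 677 and 405 CPM in the lymphatic endothelial-like cells, where only 35 and 38 cells came from 17 and 28 dpa. In vascular endothelial-like cells it stood at 103, 89.3, 107 and 109 CPM.

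Keratinocytes divided the members by layer. Itga6 stood at 747, 601, 468 and 462 CPM in basal keratinocyte-like cells and 243, 159, 193 and 178 CPM in suprabasal keratinocyte-like cells. Itgb4 stood at 286, 256, 193 and 214 and 31.1, 17.1, 29.2 and 33.4 CPM in these classes, a steeper step between the layers. Itga3, another laminin receptor chain, stood at 73.8, 50.9, 57.9 and 46.1 CPM in basal keratinocyte-like cells. Fermt1, the kindlin of epithelium, stood at 116, 112, 84.5 and 92.9 CPM in basal and 34.04, 30.6, 38.8 and 25.9 CPM in suprabasal cells, while the level of Fermt2 in basal cells was 2.19, 4.45, 4.06 and 3.45 CPM. Itgb5 went the other way, at 62.5, 84.6, 50.8 and 45.8 CPM in basal against 156, 165, 98.3 and 110 CPM in suprabasal cells.

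Itgb6, whose alpha v dimer activates latent TGF-beta in epithelium, led in follicle keratinocyte-like cells at 203, 136, 65.1 and 46.7 CPM. The unamputated interval (188 to 220) lay above the other 3, and the 12 dpa interval (111 to 164) above those of 17 and 28 dpa. The class held 247, 74, 86 and 358 cells. In basal keratinocyte-like cells Itgb6 stood at 35.8, 28.8, 25.4 and 23.4 CPM.

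Schwann-like cells were set apart by Itgb8, the other TGF-beta-activating partner of alpha v, at 898, 555, 1362 and 973 CPM. Elsewhere it reached at most 206 CPM, in T or NK-like cells. Its known partner Itgav stood at 537, 421, 488 and 411 CPM in Schwann-like cells. They also held Itga1 at 1012, 847, 431 and 550 CPM, with both late libraries below both early ones, Itga6 at 504, 414, 552 and 322 CPM and Itgb4 at 82.8, 85.97, 86.6 and 123 CPM. Itga2 stood at 134, 139, 95.6 and 88.4 CPM.

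Leukocytes held the beta 2 family. Itgb2, the shared chain of the leukocyte integrins, stood at 304, 229, 342 and 312 CPM in neutrophil-like, 158, 138, 213 and 267 CPM in macrophage-like, 132, 107, 191 and 214 CPM in dendritic-like and 136, 123, 116 and 108 CPM in T or NK-like cells. With every cell thinned to 2000 UMIs, 23.9, 23.9, 30.1 and 38.5% of macrophage-like cells had an Itgb2 UMI. Basal keratinocyte-like cells, which should lack it, gave 0, 0.350, 0.826 and 0.382%. Median UMIs per cell were 10379, 7881, 8664 and 7124 in the macrophage-like and 17981, 13677, 12706 and 9685 in the basal keratinocyte-like class, and the unthinned shares in the 2 classes were 68.3, 59.9, 73.7 and 72.4% and 0.909, 0.673, 1.63 and 2.14%. Fermt3, the kindlin of blood cells, stood at 152, 142, 108 and 90.7 CPM in macrophage-like cells. The 3 kindlins thus led in different tissues, Fermt1 in keratinocytes, Fermt2 in mural cells and Fermt3 in dendritic-like or macrophage-like cells.

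The neutrophil-like class joined 2 clusters with different integrins. Cluster 14, led by Ccrl2, Il1b and Csf3r, was found in all libraries (523, 280, 238 and 182 cells). It held Itgax, the alpha chain also called CD11c, at 223, 258, 227 and 297 CPM, Itgal, the alpha chain of LFA-1, at 323, 273, 390 and 357 CPM and Itga4 at 147, 141, 142 and 188 CPM. Cluster 18, led by the granule genes Camp, Ngp and Ltf, had 525 unamputated and 220 17 dpa cells and none at 12 or 28 dpa. There, Itgax stood at 11.6 and 20.2 CPM, Itgal at 121 and 110 CPM and Itga4 at 19.4 and 15.7 CPM, while Itgam, the alpha chain of Mac-1, was higher at 764 and 686 CPM against 544, 470, 603 and 571 CPM in cluster 14. In the class as a whole, 8 of 22 members at the minimum were at least 2-fold higher at 12 dpa and 10 of 21 at 28 dpa, beside 20.2% and 22.2% of all genes. Ilk at 12 dpa and Vcl at 28 dpa were 2-fold lower, beside 24.0% and 22.1%. At 17 dpa 1 of 18 was higher, beside 2.84%, and 0 lower, beside 3.12%. At 12 dpa Itga1 and Itga11 rest on 4 UMIs each, and the Itga1 interval reached below 0. The intervals of 5 of the 10 at 28 dpa reached below 0, with Itgb4, Itgb8 and Fermt2 resting on 2 UMIs each and Ptk2 on 3. Malat1 in the class stood at 8954, 21334, 9142 and 17484 CPM. The part of cluster 18 and of Malat1 in these counts was not tested.

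T or NK-like cells led for Itgae, whose dimer with beta 7 binds E-cadherin, at 308, 295, 112 and 108 CPM. Both late libraries lay below both early ones. Itga2 stood at 169, 25, 36.1 and 37.5 CPM there, a ratio of -2.71 (95% interval -3.56 to -1.96) at 12 dpa, with the 3 later libraries resting on 14, 18 and 8 UMIs against 247 in the unamputated one. Itgb7 stood at 208, 259, 154 and 150 CPM and Itgav at 623, 307, 337 and 295 CPM in these cells, which numbered 276, 157, 116 and 78. Itga4 at 12 dpa was low there (239, 55.4, 291 and 159 CPM) and in dendritic-like cells (224, 69.3, 277 and 200 CPM), where the other 3 libraries were all higher.

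Against the unamputated library, the fibroblast-like class showed small median differences. Ratios are log2 of (CPM + 1) at dpa over (CPM + 1) unamputated, for members of at least 5 CPM in either library, and the median bounds are the medians of the members' lower and upper 95% bounds. The 23 members reaching the minimum had a median of -0.23 (median bounds -0.36 to -0.06) at 12 dpa, 0.17 (median bounds 0.03 to 0.29) at 17 dpa and -0.19 (median bounds -0.32 to -0.0024) at 28 dpa. Over all genes the medians were -0.08, -0.04 and -0.15. All 3 comparisons share the unamputated library. At 12 dpa, 5 of 23 members were at least 2-fold lower, beside 3.95% of all genes, and 0 were higher beside 1.87%. At 17 dpa none passed 2-fold in either direction, beside 0.583% higher and 1.76% lower. At 28 dpa 3 were lower, beside 7.31%, and 0 higher, beside 2.32%.

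The 5 low members at 12 dpa were Itga2, Itga6, Itga7, Itgb4 and Itgb7. Itga6 stood at 81.4, 25.5, 152 and 62.8 CPM in the class, a log2 ratio of -1.63 (95% interval -1.90 to -1.38) at 12 dpa. Itgb4 stood at 24.6, 3.27, 42.9 and 21.5 CPM, a ratio of -2.58 (95% interval -3.19 to -1.99). Itga6, Itga7, Itgb4 and Itgb7 are the chains that cluster 24 held, and it had no cell at 12 dpa. With equal weight to each cluster present in both libraries, the 12 dpa ratios of Itga6, Itga7 and Itgb7 were 0.072, 0.34 and 0.56, while that of Itgb4 was -0.71 and that of Itga2 -0.49. The part of cluster 24 in the class ratios was not tested. At 28 dpa the low members were Itga8 (-1.0, 95% interval -1.25 to -0.75), Itgb7 (-1.05, 95% interval -1.38 to -0.71) and Itgb8 (-1.26, 95% interval -1.46 to -1.06). Itgb8 stood at 29.8, 20.8, 21.02 and 11.9 CPM. With no doublets removed the Itgb7 ratio was 0.070 and the 28 dpa median 0.10, both on the other side of 0, and the Itgb8 ratio -0.65. The Itga8 ratio was -0.37 at Leiden resolution 2. On the higher side, Fermt2 stood at 297, 267, 365 and 425 CPM, a ratio of 0.51 (95% interval 0.46 to 0.57) at 28 dpa, and Itgb3 at a ratio of 0.94 (95% interval 0.82 to 1.06). Within cluster 1, which held 1549 of the 2442 cells at 28 dpa, the same 2 genes stood at 341, 298, 415 and 462 CPM (Fermt2) and 74.4, 79.2, 79.8 and 118 CPM (Itgb3). Summed keratinocyte and macrophage markers in the class were higher at 28 dpa (177, 232, 273 and 656 CPM for the suprabasal list, 15.97, 15.9, 27.2 and 41.5 CPM for the macrophage list), and their part in the ratios was not tested.

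In vascular endothelial-like cells the 20 members had medians of -0.21 (median bounds -0.32 to -0.05), -0.0008 (median bounds -0.19 to 0.18) and -0.21 (median bounds -0.42 to -0.01) at 12, 17 and 28 dpa. All genes gave -0.10, -0.05 and -0.09. None passed 2-fold at 12 dpa, beside 0.863% of all genes higher and 0.806% lower. At 17 dpa 1 member, Itga8, was higher (5.40, 3.64, 12.95 and 4.65 CPM, a ratio of 1.12, 95% interval 0.66 to 1.56), beside 0.849%, and none lower, beside 1.01%. At 28 dpa 1 member, Itga2, was lower (-1.24, 95% interval -1.58 to -0.91), beside 3.65%, and none higher, beside 2.24%. Smooth muscle markers in the class stood at 65, 49.8, 217.3 and 336 CPM, higher at 17 and 28 dpa, and their part in the Itga8 ratio at 17 dpa was not tested. With no doublets removed that ratio was 0.79. Relative to genes of like length the Itga2 ratio at 28 dpa was -0.94. Itgb1 stood at 844, 738, 732 and 600 CPM and Itgav at 87.5, 70.04, 58.4 and 46.9 CPM, each lowest at 28 dpa.

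Basal keratinocyte-like cells showed the most one-sided shift of the 4 classes compared. Of 17 members, 15, 16 and 15 had ratios below 0 at 12, 17 and 28 dpa. The share of all genes below 0 is not given here. The member medians were -0.25 (median bounds -0.38 to -0.06), -0.45 (median bounds -0.61 to -0.25) and -0.59 (median bounds -0.74 to -0.47), against -0.12, -0.14 and -0.21 over all genes. Relative to genes of like length the member medians were -0.08, -0.17 and -0.19. Few passed 2-fold: Itgb8 at 12 dpa (-1.04, 95% interval -1.40 to -0.70) and at 28 dpa (-1.23, 95% interval -1.51 to -0.96), and Ptk2 at 28 dpa (-1.01, 95% interval -1.15 to -0.87). With the stricter cell filter the 12 dpa ratio of Itgb8 was -0.15, and after thinning its 12 and 28 dpa ratios were -0.42 and -0.63. In the order 12, 17 and 28 dpa, 2.04%, 1.29% and 3.63% of all genes were 2-fold lower. No member was 2-fold higher, beside 1.07%, 0.758% and 1.32% of all genes. Itga6 ratios were -0.31, -0.67 and -0.69, those of Itgb4 -0.16, -0.57 and -0.42 and those of Itgb1 -0.25, -0.37 and -0.55. Tln1 stood at 105, 95.2, 104 and 108 CPM and Ilk at 18.7, 24.4, 18.9 and 24.02 CPM, neither of them lower at 28 dpa. Summed basal keratinocyte markers stood at 19574, 19932, 20094 and 20708 CPM.

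In macrophage-like cells single members differed by more than the median, which lay near that of all genes. The medians were -0.15 (median bounds -0.38 to 0.06), 0.01 (median bounds -0.14 to 0.15) and 0.03 (median bounds -0.10 to 0.17) over 20, 19 and 19 members, against -0.19, 0.02 and -0.05 over all genes. Other settings put each on the other side of 0, with 0.083 at 12 dpa when scaled to the median gene, -0.15 at 17 dpa after thinning and -0.20 at 28 dpa with no doublets removed. At 28 dpa 2 members were at least 2-fold higher, beside 4.26% of all genes, and 5 at least 2-fold lower, beside 6.67%. At 17 dpa 1 was higher and 3 lower, beside 3.63% and 2.07%, and at 12 dpa 2 were higher, beside 1.49%, and 0 lower, beside 2.64%. With equal weight to each cluster none of the 17 dpa calls held, with Ptk2 at 0.31, Itga6 at -0.53, Itgav at -0.78 and Itgax at 0.24. The 2 at 12 dpa, Itga1 and Itgb3, rest on 25 and 23 UMIs. With no doublets removed their ratios were -0.016 and -0.57.

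Fermt2 made the largest step among the macrophage members. It stood at 3.39, 4.23, 5.63 and 40.3 CPM, a ratio of 3.23 (95% interval 2.78 to 3.69) at 28 dpa, and the intervals of the first 3 libraries overlapped. Within cluster 3, led by Fxyd2, F13a1 and Lyz1, which held 99, 40, 575 and 1706 cells, it stood at 9.63, 3.63, 7.29 and 41.9 CPM. In cluster 11, led by Ms4a7, Apoe and C1qb, it stood at 2.35, 4.29, 2.53 and 6.76 CPM, and without cluster 3 the 28 dpa ratio was 1.72. Fibroblast markers in macrophage-like cells summed to 244, 794, 454 and 620 CPM. At their 28 dpa share of the fibroblast level (1.46%), RNA carried over from fibroblast-like cells would give 6.20 CPM of Fermt2. Carry-over from mural or Schwann-like cells, where Fermt2 stood at 521, 448 and 496 CPM at 28 dpa, was not estimated. The part of carried-over RNA in the macrophage-like Fermt2 level was not tested. After thinning, 0.552, 1.86, 1.07 and 5.33% of macrophage-like cells had a Fermt2 UMI, against 2.75, 3.66, 3.90 and 16.5% unthinned. Basal keratinocyte-like cells gave 0, 0.699, 0 and 0.254% thinned.

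Ptk2 stood at 15.6, 11.2, 38.9 and 56.8 CPM in macrophage-like cells, a ratio of 1.80 (95% interval 1.54 to 2.07) at 28 dpa. In cluster 3 it stood at 42.02, 32.7, 44.99 and 58.6 CPM and in cluster 11 at 11.2, 9.24, 21.3 and 21.97 CPM. The libraries also differed in their share of cluster 3, and its part in the class level was not tested. Without cluster 3 the 28 dpa ratio was 1.06. Itgax, at 20.5, 27.8, 9.50 and 1.54 CPM in the class (-3.08, 95% interval -3.50 to -2.63 at 28 dpa), was at 1.75, 14.5, 0.711 and 1.08 CPM in cluster 3 and 23.6, 29.03, 29.6 and 11.8 CPM in cluster 11. Itgb5 stood at 194, 188, 104 and 65.9 CPM (-1.54, 95% interval -1.66 to -1.43), with 90.2, 167, 76.5 and 63 CPM in cluster 3 and 211, 190, 168 and 137 CPM in cluster 11.

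Other macrophage members differed between libraries within a cluster. Itgam stood at 247, 142, 314 and 463 CPM in the class and at 351, 196, 363 and 475 CPM in cluster 3, and its partner Itgb2 at 224, 193, 226 and 271 CPM in cluster 3. Both were lowest at 12 dpa and highest at 28 dpa there. Itgav, at 376, 254, 179 and 204 CPM in the class (-1.07, 95% interval -1.16 to -0.98 at 17 dpa), was at 397, 254, 206 and 176 CPM in cluster 11. Itga9, at 230, 240, 138 and 113 CPM (-1.02, 95% interval -1.12 to -0.92 at 28 dpa), was at 241, 256, 158 and 137 CPM in cluster 11. Itga6 (-1.83, 95% interval -2.07 to -1.59) and Itgal (-2.07, 95% interval -2.51 to -1.61) were the remaining members past 2-fold at 28 dpa. Several of these calls ended under other settings. Without cluster 3 the 28 dpa ratios were -0.64 for Itgal, -0.91 for Itga6, -0.81 for Itgb5 and -0.91 for Itga9, while Itgax was at -1.16. At Leiden resolution 2 Itga9 was at -0.05 and Itgax at -0.74. With equal weight to each cluster Ptk2 was at 0.58, Itgal at -0.47, Itga6 at -0.67, Itgb5 at -0.59 and Itgax at -0.88. Fermt2 was past 2-fold under each setting run, its lowest ratio being 1.72 without cluster 3. The settings named here did not correct for carried-over RNA.

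**Figure D3:**
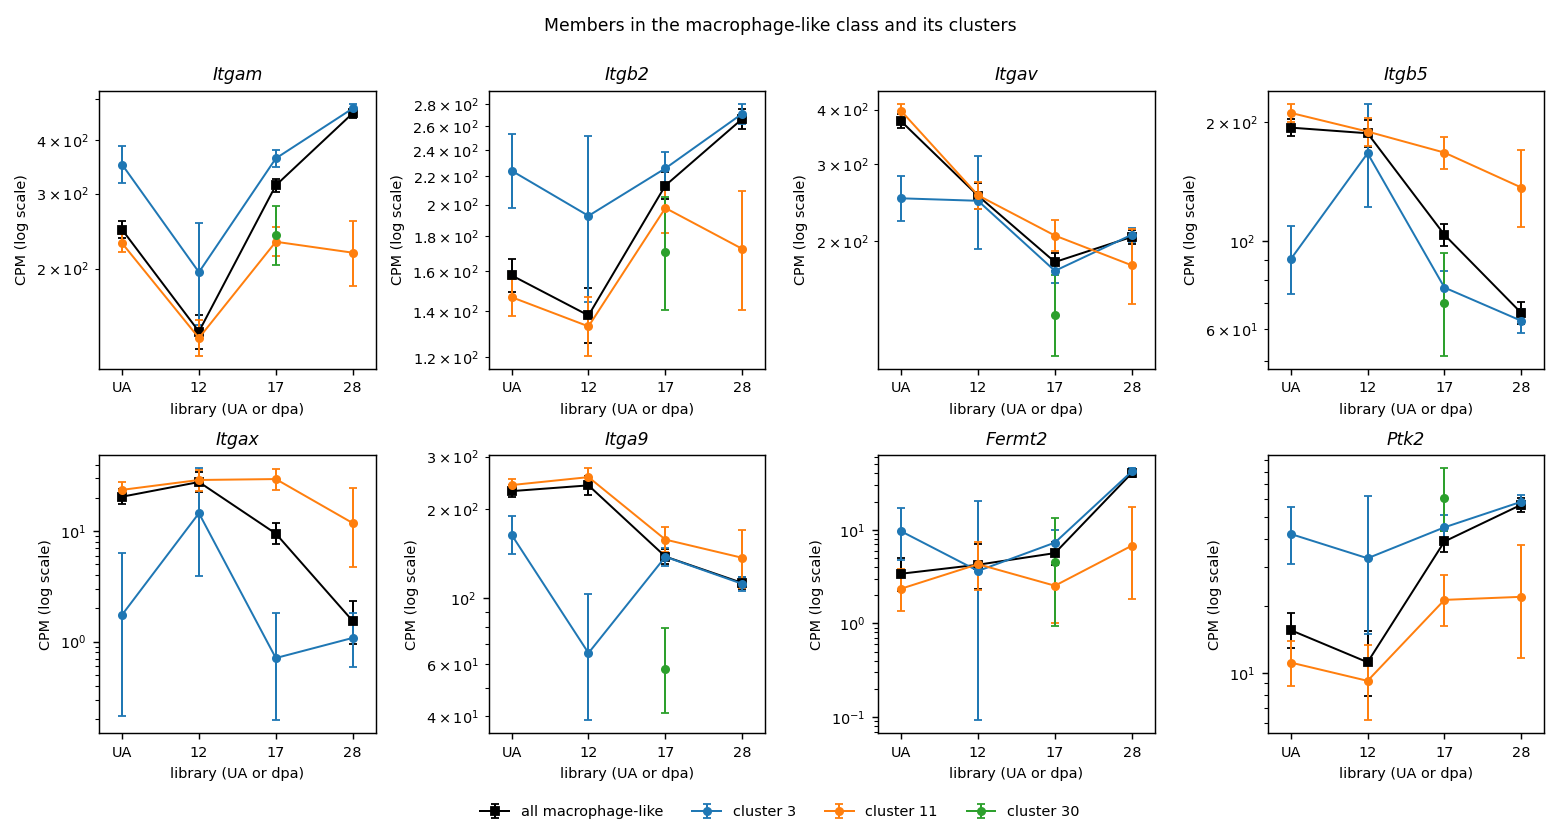
CPM (log scale) of 8 members in all macrophage-like cells (black) and in each cluster of at least 30 cells, by library, with 95% Poisson bars; zero levels are not drawn. Fermt2 in cluster 3 stands apart at 28 dpa, while the class line of Itgax, Itgb5 and Ptk2 moves from the cluster 11 level toward the cluster 3 level.

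Smooth muscle-like cells had the lowest 28 dpa median of the classes compared. The 21 members had a median of -0.42 (median bounds -0.68 to -0.16) in pericyte-like and -0.68 (median bounds -0.85 to -0.30) in smooth muscle-like cells, against -0.14 and -0.13 over all genes. Relative to genes of like length, a scale described with gene length, these medians were -0.06 and -0.29, and Ptk2 was at -0.45 and -0.55. On that scale Itga6 in pericyte-like cells was at -0.63, and Itga1 and Itgb3 in smooth muscle-like cells at -0.91 and -0.83. In pericyte-like cells Itga4, Itga6 and Ptk2 were at least 2-fold lower at 28 dpa, beside 3.36% of all genes. In smooth muscle-like cells Itga1, Itga4, Itga10, Itgb3 and Ptk2 were, beside 5.25%. Itga4 had the ratio -1.73 (95% interval -2.05 to -1.42) in pericyte-like and -1.62 (95% interval -1.87 to -1.38) in smooth muscle-like cells. Itga1 had -0.90 (95% interval -0.97 to -0.83) and -1.53 (95% interval -1.67 to -1.39). Fermt2 had -0.07 (95% interval -0.14 to 0.01) and 0.02 (95% interval -0.07 to 0.11), small values in classes where Itga1 and Itga4 were lower. In osteoblast-like cells the 28 dpa median was -0.46 (median bounds -0.70 to -0.22), in Schwann-like cells -0.26 (median bounds -0.45 to 0.22) and in tenocyte-like cells -0.10 (median bounds -0.32 to 0.13), and relative to genes of like length -0.07, -0.05 and 0.24. In tenocyte-like cells at 28 dpa 2 of 22 members were at least 2-fold higher, beside 4.25% of all genes, and 3 lower, beside 7.20%. The higher members were Itgb4 (1.35, 95% interval 0.74 to 1.86, from 22 UMIs) and Itga10, at 9.86, 6.20, 14.9 and 37.01 CPM and a ratio of 1.81, 95% interval 1.51 to 2.10. The lower members were Tln2 (-1.37, 95% interval -1.53 to -1.22), Vcl (-1.22, 95% interval -1.33 to -1.11) and Itga2b (-1.01, 95% interval -1.66 to -0.39). Relative to genes of like length Tln2 was at -0.72 and Vcl at -0.85.

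In osteoblast-like cells at 28 dpa 5 of 20 members were at least 2-fold lower, beside 6.41% of all genes, and 0 higher, beside 3.15%. They were Itga2 (-1.39), Itga8 (-1.13), Itga9 (-1.35), Itga11 (-1.15) and Tln2 (-1.35). Relative to genes of like length none of these 5 passed 2-fold, with -0.96, -0.56, -0.79, -0.73 and -0.78. On that scale Itga6 at 1.33 and Itgb3 at 1.28 were past 2-fold higher. Itga9 stood at 63.5, 15.9, 55.2 and 24.3 CPM in these cells. In dendritic-like cells at 28 dpa 4 of 23 members were lower, beside 11.9%, and 1 higher, beside 4.38%. Itgb5 stood at 75.9, 84.4, 37.5 and 30.9 CPM there (-1.27, 95% interval -1.81 to -0.76), Itga8 at 26.8, 3.52, 16.3 and 6.77 CPM and Itga9 at 22.5, 22.6, 5.44 and 1.93 CPM. At 28 dpa Itga8, Itga9, Itgb3 and Fermt2 rest on 7, 2, 1 and 7 UMIs. Itga4 in Schwann-like cells stood at 67.2, 65.5, 33.7 and 26.8 CPM and Itgb8 in suprabasal keratinocyte-like cells at 38.5, 22.2, 19.3 and 8.92 CPM. Itga9 in T or NK-like cells stood at 1.37, 1.79, 24.05 and 0 CPM, the 17 dpa level resting on 12 UMIs and the 0 at 28 dpa allowing up to 14.1 CPM.

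Ptk2 (ENSMUSG00000022607, chr15:73205102-73423280, minus strand, an annotated span of 218.2 kb) stood below its unamputated level in these structural classes at 12, 17 and 28 dpa. The values were 457, 373, 341 and 274 CPM in vascular endothelial-like, 300, 256, 213 and 147 CPM in pericyte-like, 173, 158, 121 and 102 CPM in fibroblast-like and 128, 96.6, 86.3 and 63.3 CPM in basal keratinocyte-like cells. In each of these classes every library was below the one before. Vcl stood at 338, 262, 198 and 233 CPM in fibroblast-like, 400, 215, 231 and 171 CPM in tenocyte-like and 146, 135, 105 and 85.96 CPM in basal keratinocyte-like cells, with the unamputated library the highest in each. Pxn in the same classes stood at 41.9, 34.3, 49.6 and 40.5, 13.8, 13.98, 14.1 and 11.5 and 27.1, 26.3, 22.5 and 21.8 CPM, with the unamputated library the highest only in the last. Tln2, the talin of muscle and brain, stood at 212.1, 145, 133 and 81.3 CPM in tenocyte-like cells and Tln1 at 192, 193, 197 and 157 CPM.

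**Figure D4:**
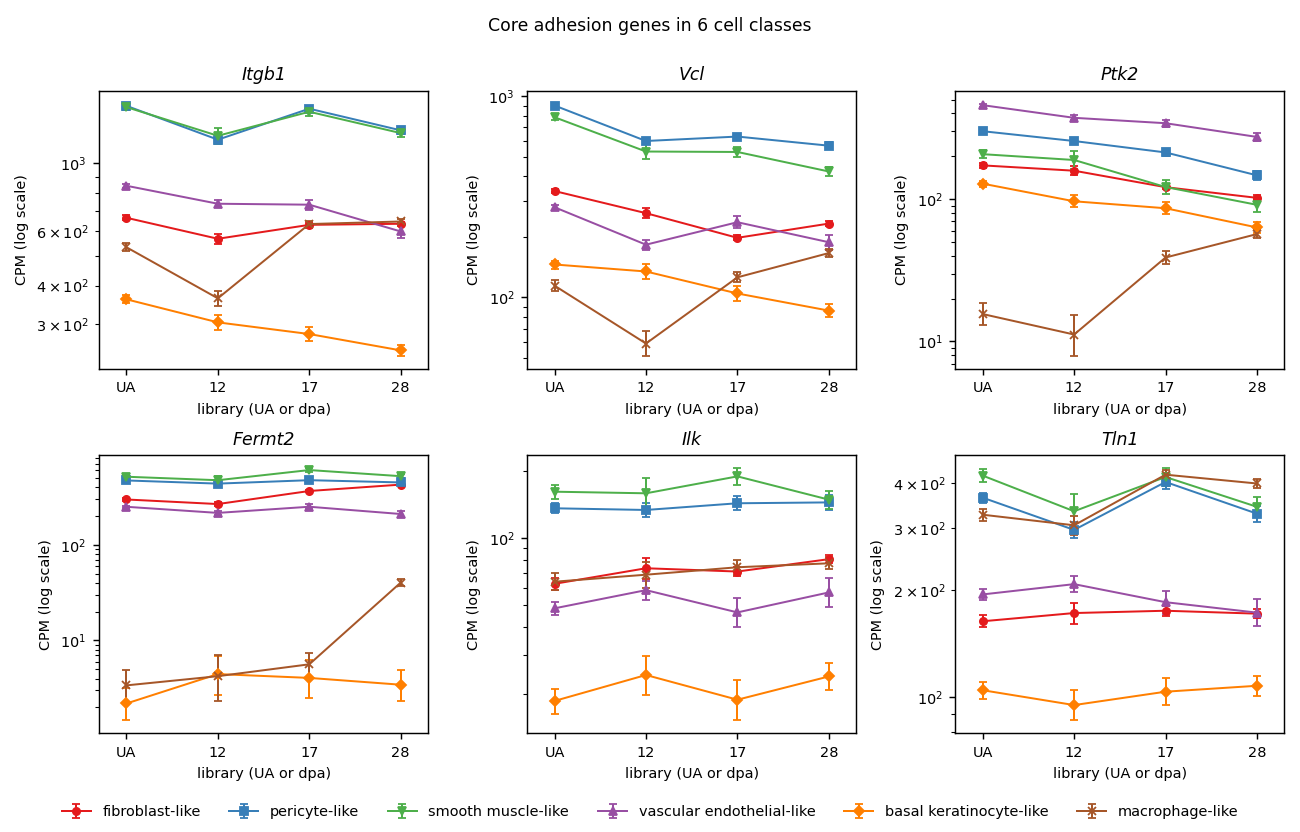
CPM (log scale) of Itgb1 and 5 cytoplasmic members in 6 classes by library, with 95% Poisson bars. Vcl and Ptk2 are highest in the unamputated library in all classes but the macrophage-like, where Ptk2 and Fermt2 are highest at 28 dpa.

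Gene length moved with these ratios. All genes at the minimum were sorted into 10 bins of equal size by annotated span (GENCODE M21, GRCm38). At 28 dpa the bin of shortest genes had a median ratio of 0.39 in fibroblast-like, 0.25 in vascular endothelial-like, 0.25 in basal keratinocyte-like and 0.31 in macrophage-like cells. The bin of longest genes had -0.79, -0.43, -0.63 and -0.41. Relative to the median of its own bin, Ptk2 at 28 dpa was at 0.04 in fibroblast-like and -0.38 in basal keratinocyte-like cells, and Vcl at -0.06 and -0.25. Itga8 in fibroblast-like cells was at -0.21. Larger differences remained on that scale for Itgb8 at -0.91 and Itgb7 at -1.04 in fibroblast-like cells, and Itga4 at -1.42 in pericyte-like and -1.30 in smooth muscle-like cells. Some ratios above 0 were larger on it, among them Itgb3 at 1.29 and Fermt2 at 0.86 in fibroblast-like cells, and in macrophage-like cells Fermt2 at 3.54 and Ptk2 at 2.21.

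The median of the members relative to genes of like length was -0.17 at 17 dpa and -0.19 at 28 dpa in basal keratinocyte-like cells, against -0.45 and -0.59 on the plain scale. In fibroblast-like cells at 28 dpa and vascular endothelial-like cells at 12 dpa it was 0.11 and 0.018, on the other side of 0. Malat1, a nuclear RNA, stood at 22758, 24040, 22195 and 22709 CPM in fibroblast-like and 9661, 12530, 10325 and 8753 CPM in basal keratinocyte-like cells. Depth per cell was lowest at 28 dpa. With each cell thinned to 2000 UMIs, the 28 dpa ratio of Ptk2 was -1.10 in basal keratinocyte-like and 1.79 in macrophage-like cells. Whether introns were counted is not given in the sources used here.

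**Figure D5:**
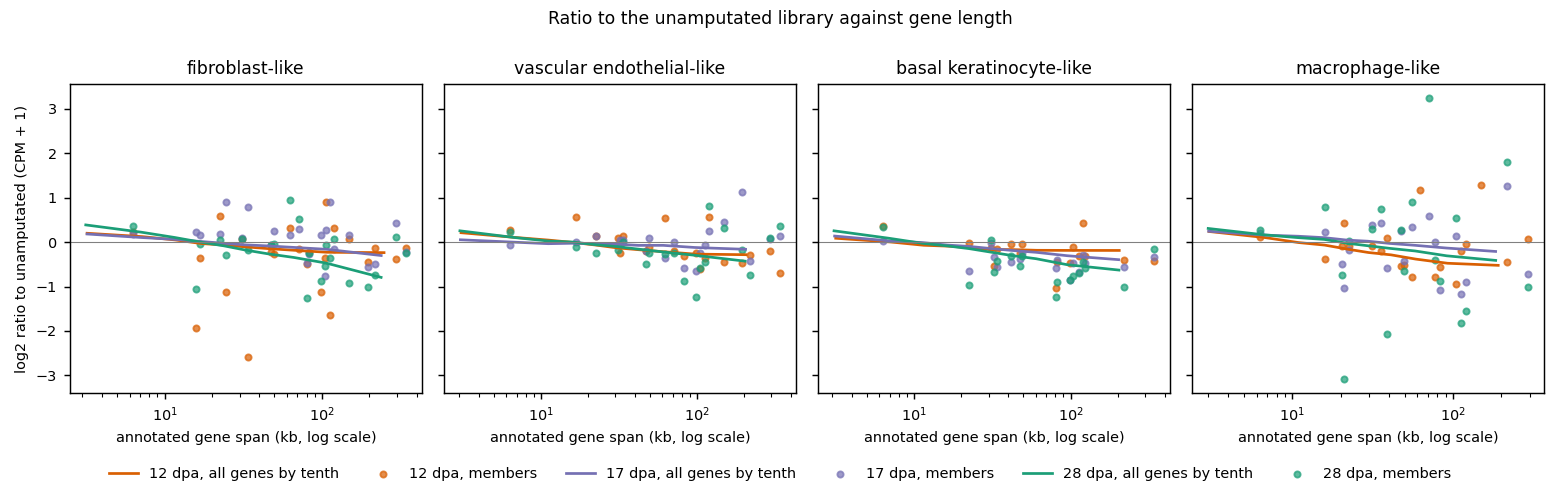
Log2 ratio to the unamputated library against annotated gene span (kb, log scale) in 4 classes; lines join the medians of all genes by bin of length and points are members, coloured by dpa. The lines go from above 0 for the shortest genes to below 0 for the longest in every panel, farthest at 28 dpa in all but the macrophage-like class, and Ptk2 in fibroblast-like cells lies near its line.

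The partners of these receptors were counted from 4 further lists, and pairs of levels here give the unamputated before the 28 dpa library. Over all genes the 28 dpa medians were -0.15 in fibroblast-like, -0.21 in basal keratinocyte-like and -0.05 in macrophage-like cells. For the adhesome partners at 28 dpa, in fibroblast-like cells 26 of 29 reached the minimum, with 1 at least 2-fold higher, 3 at least 2-fold lower (over all genes 2.32% and 7.31%) and a median of -0.30. Palladin, an actin cross-linker, stood at 232 against 109 CPM (log2 ratio -1.08) and Tns3, a tensin, at 69.5 against 26.9 CPM (log2 ratio -1.34). In basal keratinocyte-like cells 22 of 29 reached the minimum, with 0 at least 2-fold higher, 2 at least 2-fold lower (over all genes 1.32% and 3.63%) and a median of -0.38. In macrophage-like cells 26 of 29 reached the minimum, with 2 at least 2-fold higher, 3 at least 2-fold lower (over all genes 4.26% and 6.67%) and a median of -0.02, with Src at 23 against 4.40 CPM (log2 ratio -2.15) and Tns1 at 219 against 410 CPM (log2 ratio 0.90). Among the genes of integrin activation and surface partners in macrophage-like cells, 13 of 14 reached the minimum, with 3 at least 2-fold higher, 0 at least 2-fold lower (over all genes 4.26% and 6.67%) and a median of 0.08. The tetraspanins Cd9 and Cd81 stood at 317 against 1015 CPM (log2 ratio 1.68) and 93.01 against 315 CPM (log2 ratio 1.75).

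Among integrin ligands in fibroblast-like cells at 28 dpa, 22 of 28 reached the minimum, with 3 at least 2-fold higher, 7 at least 2-fold lower (over all genes 2.32% and 7.31%) and a median of -0.61. Postn, a matricellular ligand of alpha v integrins, stood at 4548 against 1406 CPM (log2 ratio -1.69) and Spp1, osteopontin, at 6.49 against 57.6 CPM (log2 ratio 2.97). In basal keratinocyte-like cells 21 of 28 reached the minimum, with 3 at least 2-fold higher, 5 at least 2-fold lower (over all genes 1.32% and 3.63%) and a median of -0.47. Fn1, fibronectin, stood at 12.6 against 69.9 CPM (log2 ratio 2.38). Fibroblast markers summed to 300, 469, 507 and 519 CPM in the same cells, and the part of carried-over RNA in the Fn1 value was not tested. All 4 hemidesmosome genes reached the minimum in basal keratinocyte-like cells, and their median of -0.16 lay near that of all genes. Of the 4, 0 were at least 2-fold higher and 0 at least 2-fold lower (over all genes 1.32% and 3.63%). Col17a1, which is also a marker used to name this class, stood at 985 against 898 CPM (log2 ratio -0.13).

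Across 14 classes in 4 libraries, 56 points, alpha and beta chains of known dimers followed each other to different degrees. The points share libraries and cells, so the coefficients are descriptions. Itgb2 and Itgam had a Pearson coefficient of 0.94 (Spearman 0.89) on log2(CPM + 1), Itgb2 and Itgal 0.91 (0.59) and Itgb4 and Itga6 0.89 (0.79). For Itgb7 the coefficient was 0.79 (0.34) with Itgae and 0.60 (0.45) with Itga4. Among the partners of Itgb1, Itga1 had 0.74 and Itga6 -0.22. Itgav, which is shared by several beta chains, had 0.57 with Itgb8, 0.09 with Itgb5 and -0.24 with Itgb6.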

How the data were processed

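Single cells of 4 digit libraries were counted per gene as UMI counts, deposited by the authors as 10x matrices with all barcodes that passed their cell calling. Per the submitters' processing notes Cell Ranger 7.1.0 and mm10 were used. Barcodes under 500 genes or 1000 UMIs, or above 10% mitochondrial counts, were dropped, as were Scrublet doublets at a rate of 0.8% per 1000 barcodes. Scanpy 1.11.5 clustered all libraries together (2000 variable genes, 30 components, 15 neighbours, Leiden resolution 1), with the 34 genes, the partner lists and sex-linked genes left out. A cluster took the name of a marker list when at least 3 and at least 50% of its markers were each detected in 25% of cells, a rule written after the clusters had been seen. Krt85 was not analysed here.

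UMIs were summed per class and library. Levels carry exact Poisson 95% intervals, and log2 ratios (pseudocount 1 CPM, minimum 5 CPM in either library) conditional binomial ones. PCR and sorting add error beyond them. Ratio scripts were tested on simulated data. Members were taken for description where they reached 20 CPM or passed 2-fold in a class, though not every such value is printed. Partner genes come from the 2 highest and 2 lowest ratios per list and class among those of at least 20 CPM. Cluster-level values and members named below 20 CPM were chosen after the values had been seen. The members and lists were chosen with earlier results of these data known. Gene spans came from GENCODE M21, which held 32235 of the 32285 gene IDs.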

Additional observations from a re-analysis of the deposited data

Results flagged for a closer look

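At 28 dpa the log2 ratio of Ptk2 to the unamputated library was -1.01 in basal keratinocyte-like and 1.80 in macrophage-like cells, opposite directions in 1 library per group, and the difference was not tested. The basal keratinocyte-like value was -0.38 relative to genes of like length, and the macrophage-like value 0.58 with equal weight to each cluster, both short of 2-fold.

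In data that no comparison used, sex-linked transcripts called 54.2% of the 12 dpa cells female, against at most 1 female cell in each of the other libraries, although all libraries are labelled as pooled from both sexes.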

How the results depend on the processing

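No paired analysis was possible because each group was 1 library with no replicate. Over 157 settings of the 12 class medians, 131 kept direction and size, 23 moved by more than their counting error and 3, of medians whose bounds lay on 1 side of 0, changed sign. Macrophage-like medians, whose bounds included 0, crossed 0 in both directions, and the vascular endothelial-like 17 dpa median ranged from -0.06 to 0.07. With no doublets removed the fibroblast-like 28 dpa median was 0.10, and relative to genes of like length it was 0.11 and the vascular endothelial-like 12 dpa median 0.018. The basal keratinocyte-like 28 dpa median was -0.79 with the stricter cell filter, -0.47 with no doublets removed, -0.38 at Leiden resolution 2, -0.35 with each cell named alone, -0.42 as mean CPM per cell, -0.46 with equal cluster weight, -0.32 with no minimum, -0.35 scaled to the median gene and -0.19 for like length (-0.17 at 17 dpa). Its 12 dpa median was -0.42 with the stricter filter. The macrophage-like 28 dpa median was -0.19 with the stricter filter, -0.20 with no doublets removed, -0.19 at Leiden resolution 2 and with each cell named alone, -0.17 with equal weight and -0.18 without cluster 3. Its 17 dpa median was -0.15 after thinning, and its 12 dpa median 0.083 scaled to the median gene and 0.078 for like length. The fibroblast-like 12 dpa median was -0.36 with the stricter filter, -0.42 at Leiden resolution 2 and -0.47 pooled with tenocyte-like cells. The cause of these moves was not tested. Over 333 settings of single members, 226 kept direction and size, 98 moved by more than their counting error and 9 changed sign. The changes of sign were Itgb7 in fibroblast-like cells at 28 dpa (0.070) and Itga1 (-0.016) and Itgb3 (-0.57) in macrophage-like cells at 12 dpa with no doublets removed, Itgb3 again at Leiden resolution 2 (-0.26), Itga6 (0.072), Itga7 (0.34) and Itgb7 (0.56) in fibroblast-like cells at 12 dpa and Itgax in macrophage-like cells at 17 dpa (0.24) with equal weight, and Itgax at 17 dpa without cluster 3 (0.017). Pooling with tenocyte-like cells, leaving out cluster 3 or the 12 dpa library, and the like-length scale in all classes were chosen after seeing the data. Depth limits small classes most, and 1 library per group leaves variation between animals unmeasured.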
